A study of Mus musculus with 6 samples.

Results

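The interferon response and antigen presentation genes described here are 37 genes whose products respond to interferon or carry peptides to T cells. They were taken by symbol from a table of 55421 mouse genes, and all 37 were among the 17069 genes that had enough counts to be tested. By role they are 4 signalling and transcription factors, 18 interferon-induced effectors and regulators, 3 cytosolic RNA sensors, 6 genes of MHC class I and its peptide loading, 3 immunoproteasome subunits and 3 genes of MHC class II. The table holds hippocampal RNA from 6 wild-type male C57BL/6N mice, each sequenced as 1 stranded mRNA library. The SP group (n = 3) received substance P, a neuropeptide released by sensory nerves, at 10 µM in 100 µL under the skin on 14 consecutive days, and the vehicle group (n = 3) received saline in the same volume. Mice of both groups were 8 to 10 weeks old and came from 1 supplier. The study asked how SP in the periphery affects the hippocampus, and the comparison here concerns its interferon and antigen presentation program.

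Interferons bind receptors that activate kinases and STAT proteins, and a complex that holds STAT2 and IRF9 then switches on antiviral genes through a DNA element called the interferon-stimulated response element (ISRE). Interferon gamma acts mainly through gamma-activated sites (GAS), and it raises the MHC genes, the peptide transporter and the immunoproteasome. In healthy brain this program runs at a low level, class I genes are carried by many cell types, and class II genes are confined mostly to macrophages at the borders of the brain and to a few other immune cells.

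Because these genes are commonly read as targets of the same element, the stretches that hold it are shown for 6 of them before their expression. Of the 37 genes, 29 had a promoter window in RefSeq for GRCm38.p6, which covers 250 bases before to 50 bases after the transcription start. The ISRE core GAAANNGAAA, read on both strands, was present in 12 of the 29 (41.4%) and in 1079 of 27025 genes with a window (3.99%). The GAS letters TTCNNNGAA were present in 8 of the 29 (27.6%) and in 2582 of the 27025 (9.55%). *Ifih1*, *Eif2ak2* and *Bst2* are shown because they combined an ISRE core with lower expression in the SP group at an unadjusted p under 0.05. *Isg15* is shown as a strongly inducible gene, *Ifit3* for its separate copies of the element and *B2m* as the most abundant of the 37 genes. Capitals mark the ISRE core on either strand, and overlapping copies run together.
Ifih1: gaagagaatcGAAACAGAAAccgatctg
Eif2ak2: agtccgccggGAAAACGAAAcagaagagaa
Bst2: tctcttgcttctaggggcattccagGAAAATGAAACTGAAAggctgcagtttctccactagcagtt
Isg15: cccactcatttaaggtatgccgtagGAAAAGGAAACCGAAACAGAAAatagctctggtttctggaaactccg
Ifit3: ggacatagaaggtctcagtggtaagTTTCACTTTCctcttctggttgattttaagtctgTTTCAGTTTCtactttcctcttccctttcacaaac
B2m: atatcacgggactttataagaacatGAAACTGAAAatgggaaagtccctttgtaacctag

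These stretches lie at chr2:62646206-62646233 on the minus strand for *Ifih1*, chr17:78882535-78882564 on the minus strand for *Eif2ak2* and chr8:71537562-71537627 on the minus strand for *Bst2*. Those of *Isg15*, *Ifit3* and *B2m* lie at chr4:156200850-156200921 on the minus strand, chr19:34583348-34583441 on the plus strand and chr2:122147523-122147582 on the plus strand. The core began 32 bases after the start of *Ifih1* and 18 bases after that of *Eif2ak2*, so both lay within the transcribed sequence. In *Bst2* there were 2 overlapping copies of which the first began 130 bases before the start, and in *Isg15* there were 3, the first 78 bases before it. *Ifit3* had 2 separate copies on the opposite strand, 156 and 122 bases before its start, and *B2m* had 1 copy 139 bases before. The other genes with an ISRE core were *Stat2*, *Ifit1*, *Ifitm2*, *Ifitm3*, *Gbp7* and *Ddx58*. *Usp18*, *Ifi27*, *Rtp4*, *Parp14*, *Dhx58*, *Tap2*, *H2-Ab1* and *Cd74* had no entry. A match describes the letters of the window and is not evidence of a factor bound there. Only these exact letters were searched, so a window without a match may still hold a variant of the element.

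The libraries labelled vehicle held between 23105903 and 27605935 counts and those labelled SP between 22349964 and 24284625, so that 3 counts corresponded to 0.109 to 0.135 CPM, the count relative to a normalized library size. The library labelled SP 1 stood apart in its content of choroid plexus, the secretory tissue of the ventricles. Its 6 choroid plexus markers summed to 170 CPM, while the other libraries ranged from 2776 to 4705 CPM. Markers of leptomeningeal fibroblasts summed to 214 to 319 CPM in the SP group against 339 to 410 in the vehicle group. Without their most abundant gene, *Igf2*, a sum taken after seeing the data, the groups overlapped, at 158, 147 and 149 CPM in the vehicle libraries and 149, 89.1 and 131 CPM in the SP libraries. Summed markers of oligodendrocytes (2270 to 3273 against 1958 to 2235 CPM) and of hippocampal principal neurons (2117 to 2312 against 1983 to 2045 CPM) were higher, while those of astrocytes (3637 to 4029 against 3715 to 3981), brain endothelium (211 to 218 against 214 to 226) and red blood cells (135 to 238 against 140 to 175) overlapped between the groups. In bulk tissue, fewer cells of a type and less RNA per cell cannot be told apart, and the part of tissue content in the values below was not tested.

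Expression is given per library as CPM in the order vehicle 1, 2 and 3 and then SP 1, 2 and 3. Differences are log2 fold changes of SP relative to vehicle from edgeR's quasi-likelihood test with the replicate number as a block, and FDR is the p-value adjusted by Benjamini-Hochberg over all 17069 genes. None of the 37 genes was called at FDR < 0.1 with |log2FC| > 0.3, and the lowest FDR among them was 0.351. Over all genes 5 were called, which is 0.0293%. DESeq2 with the block and limma-voom called none of the 37 either, with unadjusted p under 0.05 for 0 and 5 of them, but DESeq2 gave no adjusted p for 22 of the 37, *Ifih1* included. The median log2 fold change of the 37 genes was -0.059, that of all genes tested was 0.0015, and the single values ran from -0.59 for *Ifih1* to 0.21 for *Irf1*. Of the 37 genes, 25 (67.6%) had a negative fold change, against 49.5% of all genes tested.

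Below an unadjusted p of 0.05 stood 5 genes with lower expression in the SP group (13.5%, against 5.59% of all genes in that direction). They were *Ifih1*, *Bst2*, *H2-Ab1*, *Eif2ak2* and *Irf7*, and they came from the sensors, the effectors, MHC class II and the transcription factors. No gene with higher expression reached that p, against 4.48% of all genes. The 3 SP libraries lay wholly below the 3 vehicle libraries in 7 genes (18.9%, against 9.03% of all genes), namely *Irf7*, *Ifit2*, *Gbp7*, *Eif2ak2*, *Ifih1*, *B2m* and *H2-Ab1*. They lay wholly above in *Irf1* alone (2.7%, against 9.19%). Without both mice numbered 1, among them the library labelled SP 1, the median over the 37 genes was -0.076 and *Ifih1* and *H2-Ab1* had an unadjusted p under 0.05. Of the 5 genes, *Ifih1* alone stayed under that p whichever replicate number was left out. *Bst2* did so without the mice numbered 3 only, *H2-Ab1* without those numbered 1 only, and *Eif2ak2* and *Irf7* in none of the 3 fits. Groups of 3 mice set a floor of 0.1 on the p of an exact two-sided permutation test that ignores the replicate number. Swaps within replicate numbers, as the block would require, set a higher floor. Single genes were therefore judged by edgeR alone.

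**Figure D1:**
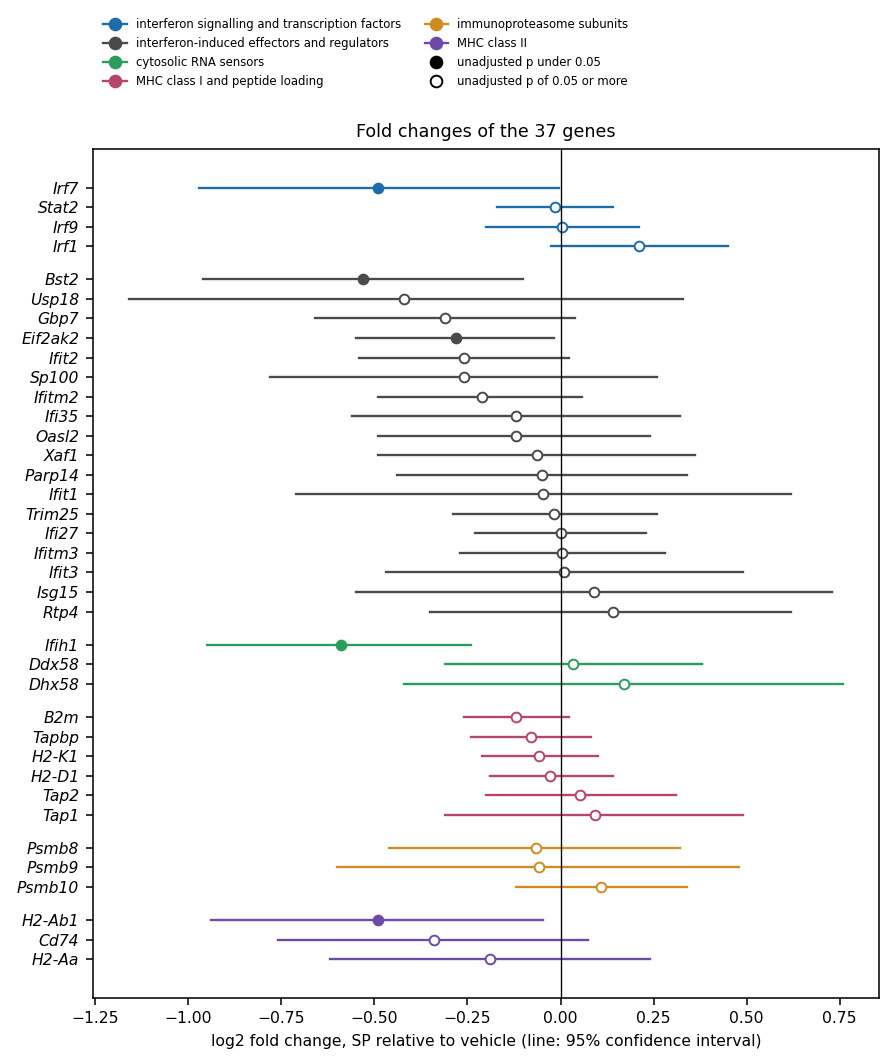
Log2 fold change of SP relative to vehicle for each of the 37 genes (x axis), grouped by role, with lines for the 95% confidence interval of edgeR's fit and filled points for an unadjusted p under 0.05. The 5 filled points, Irf7, Bst2, Eif2ak2, Ifih1 and H2-Ab1, all lie left of 0, and all other intervals cross it.

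Of the 4 factors at the head of the response, 1 had lower and 1 higher values in the SP group without overlap, and 2 overlapped between the groups. Over all genes tested, 9.03% lay wholly lower and 9.19% wholly higher, and so few factors cannot be told from these shares. *Irf7* (chromosome 7 from 141262706 to 141266481, minus strand) encodes the factor that amplifies type I interferon production. Its expression was 1.98, 1.94 and 1.81 CPM in the vehicle libraries and 1.32, 1.41 and 1.35 CPM in the SP libraries. All SP values lay below all vehicle values, and the log2 fold change was -0.49 ± 0.207 (SE, FDR = 0.493), with a 95% interval from -0.97 to -0.004. These values rest on 46, 48 and 50 counts against 31, 34 and 30, so their narrow spread is not read as precision. *Irf1*, a factor induced by interferon gamma that drives class I and immunoproteasome genes, had higher values in the SP group (chromosome 11 from 53770014 to 53778374, plus strand). It stood at 6.92, 7.68 and 7.04 CPM in the vehicle libraries and 8.14, 8.72 and 8.17 CPM in the SP libraries, again without overlap, with a log2 fold change of 0.21 ± 0.101 (SE, FDR = 0.534). Its GAS letters, present in 1 of its 2 windows, were not accompanied by an ISRE core, and *Irf7* had neither motif in its window.

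*Stat2* and *Irf9*, whose products act together at the ISRE, were the best measured of the factors and overlapped fully between the groups. *Stat2* measured 33.0, 30.1 and 31.9 CPM in the vehicle libraries and 34.0, 31 and 29.2 CPM in the SP libraries. Its log2 fold change was -0.014, with an interval from -0.17 to 0.14. *Irf9* measured 12.8, 13.2 and 13.6 CPM against 12.7, 14.2 and 12.8 CPM, with an interval of the log2 fold change from -0.20 to 0.21. For both genes the interval leaves room for a small difference in either direction.

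**Figure D2:**
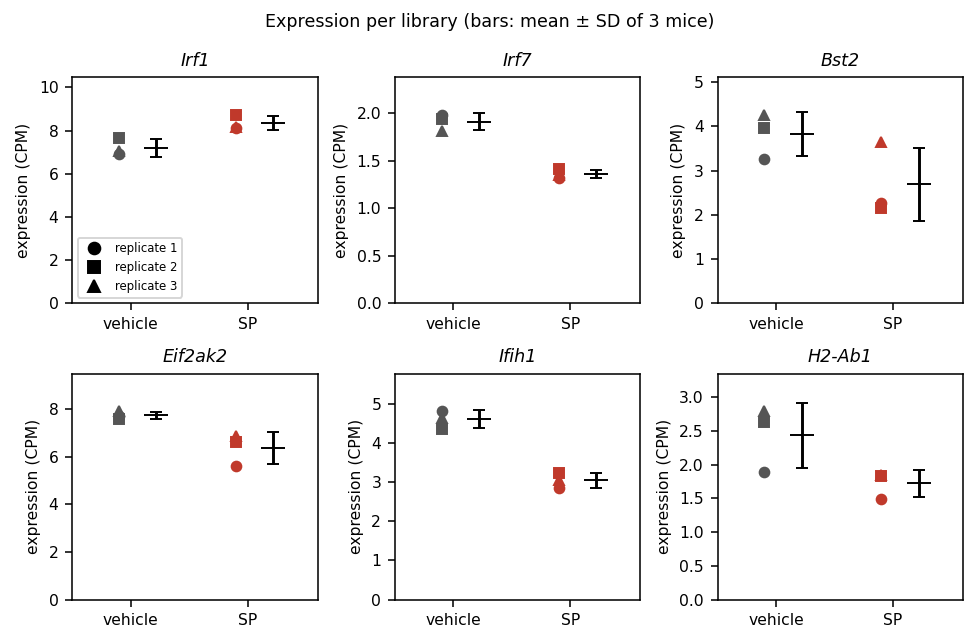
Expression in CPM (y axis) of Irf1 and of the 5 genes with an unadjusted p under 0.05, 1 point for each library and a bar for the mean ± SD of 3 mice in each group. The groups do not overlap for Irf1, Irf7, Eif2ak2, Ifih1 and H2-Ab1, while for Bst2 the library labelled SP 3, at 3.64 CPM, lies among the vehicle libraries.

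Among the 18 interferon-induced effectors and regulators, 13 had a negative fold change and 5 a positive one, with a median of -0.09. *Bst2* encodes tetherin, a membrane protein that holds budding virions at the cell surface (chromosome 8 from 71534255 to 71537456, minus strand). It measured 3.27, 3.96 and 4.25 CPM in the vehicle libraries and 2.26, 2.16 and 3.64 CPM in the SP libraries. SP 1 and SP 2 were below every vehicle library and SP 3 was not, and the log2 fold change was -0.53 ± 0.183 (SE, FDR = 0.429). *Eif2ak2* encodes PKR, the kinase that stops translation when it binds double-stranded RNA (chromosome 17 from 78852564 to 78882573, minus strand). It measured 7.69, 7.6 and 7.91 CPM in the vehicle libraries and 5.62, 6.60 and 6.87 CPM in the SP libraries. The vehicle values were nearly equal and the SP values lay below them, lowest in SP 1, with a log2 fold change of -0.28 ± 0.114 (SE, FDR = 0.470). Without the mice numbered 1 it was -0.20.

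*Ifit2* and *Gbp7*, a protein that binds translation machinery under interferon and a GTPase of the guanylate-binding family, also had SP values below all vehicle values. *Ifit2* measured 7.31, 8.41 and 7.08 CPM against 6.01, 6.23 and 6.78 CPM, with a log2 fold change of -0.26 (FDR = 0.520). *Gbp7* measured 5.80, 4.77 and 5.66 CPM against 4.69, 4.61 and 3.77 CPM, with a log2 fold change of -0.31 (FDR = 0.534). Neither passed the unadjusted threshold. The value of *Ifit2* was -0.17 without the mice numbered 2, that of *Gbp7* was -0.18 without those numbered 3, and 14.7% of the 31-base sequences of *Gbp7* are shared with other genes.

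Several of the most strongly interferon-inducible genes of the list varied more within a group than between groups. *Ifit3*, the companion of *Ifit2* in the antiviral IFIT complex, measured 5.93, 6.55 and 3.74 CPM in the vehicle libraries and 8.56, 4.52 and 3.73 CPM in the SP libraries. The highest and the lowest library were both SP libraries, and the log2 fold change of 0.0099 had an interval from -0.47 to 0.49. *Ifit3* shares 61.8% of its 31-base sequences with *Ifit3b*, so that their reads could be divided either way. The summed CPM of both genes was 8.29, 8.81 and 6.46 in the vehicle libraries and 11.5, 6.72 and 6.96 in the SP libraries, which also overlapped.

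*Isg15*, a ubiquitin-like modifier that is attached to proteins under interferon, was among the genes of lowest CPM, at 1.03, 1.17 and 0.508 CPM against 1.19, 1.04 and 0.629 CPM. Its log2 fold change was 0.091, with an interval from -0.55 to 0.73, and the groups overlapped. *Ifitm3*, which blocks the fusion of viruses with endosomes, measured 7.65, 7.40 and 6.28 CPM against 7.03, 7.10 and 7.18 CPM. The SP values lay inside the vehicle range, with an interval of the log2 fold change from -0.27 to 0.28. The remaining effectors were *Ifit1*, *Usp18*, *Oasl2*, *Ifi27*, *Ifi35*, *Rtp4*, *Trim25*, *Xaf1*, *Ifitm2*, *Parp14* and *Sp100*. All 11 overlapped between the groups, their log2 fold changes ran from -0.42 for *Usp18* to 0.14 for *Rtp4*, and none had a p under 0.05. *Ifitm2*, with a log2 fold change of -0.21, shares 55.5% of its sequence with other genes.

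**Figure D3:**
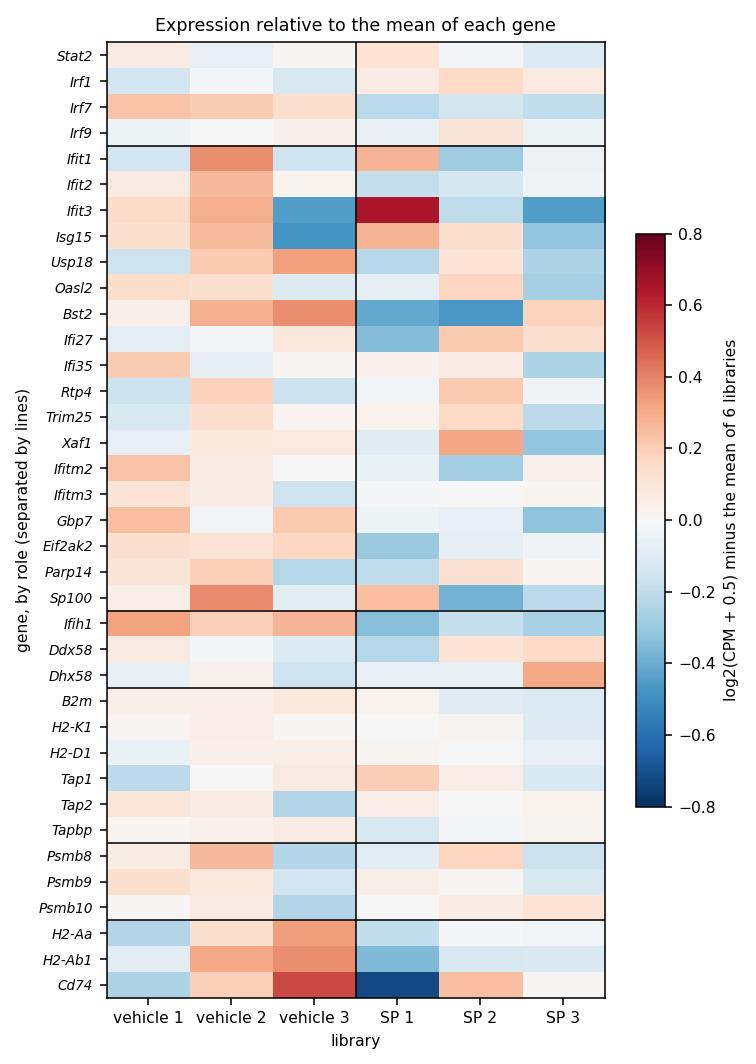
Expression of the 37 genes in each of the 6 libraries as log2(CPM + 0.5) minus the mean of the gene over the 6 libraries (color scale), with genes in rows by role and libraries in columns. Irf7, Ifih1 and Eif2ak2 are above their mean in all 3 vehicle libraries and below it in all 3 SP libraries, while Ifit3 and Cd74 are uneven within each group.

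Of the 3 cytosolic RNA sensors, 1 had lower values in the SP group without overlap (9.03% of all genes did), and 2 overlapped between the groups. *Ifih1* encodes MDA5, which recognises long double-stranded RNA and signals toward interferon production (chromosome 2 from 62595798 to 62646255, minus strand). It measured 4.81, 4.36 and 4.64 CPM in the vehicle libraries and 2.85, 3.24 and 3.05 CPM in the SP libraries. The gap between the groups exceeded the spread within either, and the log2 fold change was -0.59 ± 0.151 (SE, FDR = 0.351), with a 95% interval from -0.95 to -0.24. This was the lowest p of the 37 genes. Across the 12 fits tried, *Ifih1* had a negative fold change in 12 and an unadjusted p under 0.05 in 11, and its log2 fold change ran from -0.68 to -0.52. It passed FDR < 0.1 in 1 of them, the fit with no filter on low counts (FDR = 0.0764). It shares only 0.135% of its 31-base sequences with any other gene, and no exon of another annotated gene overlaps its exons.

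*Ddx58* encodes RIG-I, the related sensor of short viral RNA. It measured 6.70, 6.30 and 5.84 CPM in the vehicle libraries and 5.33, 6.89 and 7.14 CPM in the SP libraries. SP 1 was the lowest library and SP 3 the highest, and the log2 fold change of 0.034 had an interval from -0.31 to 0.38. *Dhx58*, the regulatory member of the family, ranged from 1.16 to 1.80 CPM over the 6 libraries and had a log2 fold change of 0.17, with an interval from -0.42 to 0.76. Both intervals overlap that of *Ifih1*, and whether the 3 sensors differed from one another in response was not tested.

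The genes of MHC class I and its loading had log2 fold changes between -0.12 and 0.093, and they include the most abundant gene of the list. On the TPM scale, which corrects the level for exon length and library size, *B2m*, the invariant light chain of class I molecules, was highest of all 37 genes at 253 ± 15.3 TPM (SD, n = 6). The heavy chains *H2-D1* and *H2-K1* stood at 36.3 ± 1.64 and 28.4 ± 1.62 TPM. *B2m* measured 68.7, 68.7 and 70.8 CPM in the vehicle libraries and 68.1, 62.4 and 61.7 CPM in the SP libraries (chromosome 2 from 122147686 to 122153083, plus strand). The SP values were all below the vehicle values, SP 1 only just, and the log2 fold change was -0.12 ± 0.0599 (SE, FDR = 0.555). Its interval ran from -0.26 to 0.023.

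*H2-K1* measured 26.0, 26.6 and 25.8 CPM against 25.6, 26.0 and 23.8 CPM, and *H2-D1* measured 27.7, 29.5 and 29.8 CPM against 29.2, 28.8 and 27.4 CPM. Both overlapped between groups, with intervals of the log2 fold change from -0.21 to 0.10 and from -0.19 to 0.14. The heavy chains share 22.8% and 26.7% of their 31-base sequences with other genes, and their summed CPM (53.7, 56.1 and 55.6 against 54.8, 54.8 and 51.1) overlapped as well. *Tap1*, which with *Tap2* forms the transporter that brings peptides to class I, measured 3.52, 4.16 and 4.39 CPM against 4.82, 4.32 and 3.77 CPM. The order of its libraries was mixed, with a log2 fold change of 0.093. *Tap2* (0.052) and the loading chaperone *Tapbp* (-0.079) also lay near 0, and opposite-strand genes cover 18.5% and 24.9% of their exons.

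**Figure D4:**
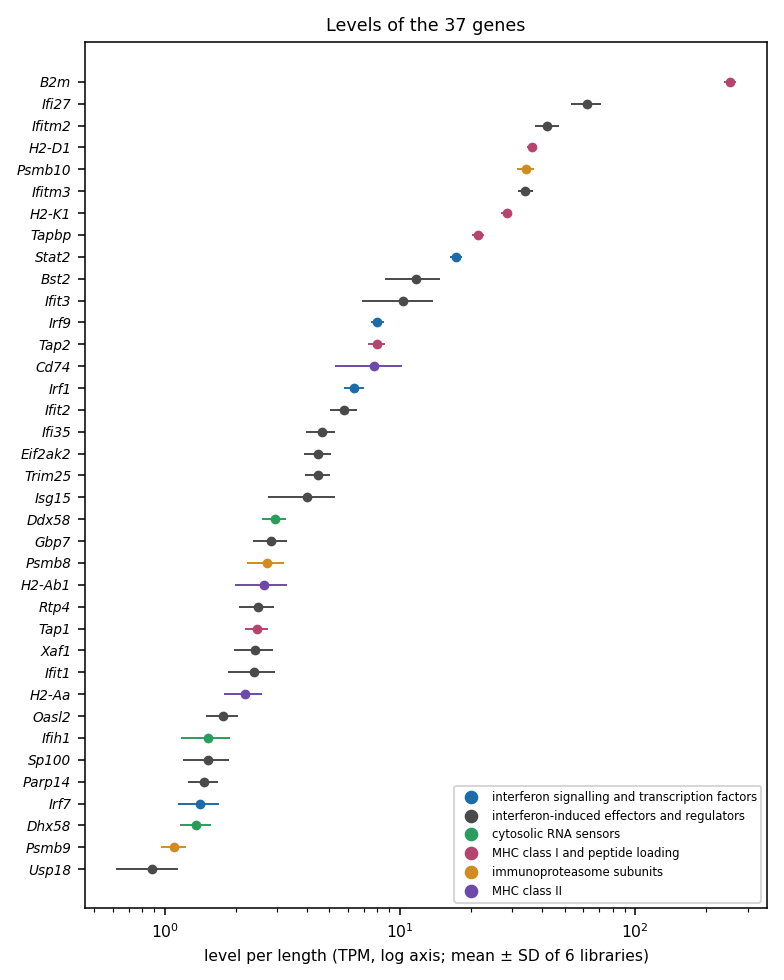
Level of the 37 genes in TPM (x axis, log scale), ordered from highest to lowest, as points for the mean and lines for the SD over the 6 libraries, colored by role. B2m, at 253 TPM, lies above Ifi27 at 62.3 TPM, and Usp18 is lowest at 0.879 TPM.

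On the per-length scale the list spanned from *B2m* down to *Usp18*, the brake on interferon receptor signalling, at 0.879 ± 0.261 TPM. Behind *B2m* came *Ifi27* (62.3 ± 8.92 TPM) and *Ifitm2* (42.3 ± 5.03 TPM), then *H2-D1*, *Psmb10* (34.2 ± 2.94 TPM) and *Ifitm3* (34.1 ± 2.54 TPM). The levels of *H2-D1*, *Psmb10* and *Ifitm3* did not differ beyond their SDs. The genes with an unadjusted p under 0.05 sat lower, with *Bst2* at 11.7 ± 3.10, *Eif2ak2* at 4.49 ± 0.586, *H2-Ab1* at 2.64 ± 0.659, *Ifih1* at 1.53 ± 0.362 and *Irf7* at 1.41 ± 0.279 TPM. *Ifih1*, *Sp100* (1.53 ± 0.335), *Parp14* (1.47 ± 0.218), *Irf7* and *Dhx58* (1.36 ± 0.202) formed a run of neighbours that could not be ordered.

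The immunoproteasome is a proteasome whose catalytic subunits have been exchanged for interferon-induced ones that cut peptides suited to class I. *Psmb10*, its most abundant subunit here, measured 18.0, 18.7 and 15.1 CPM in the vehicle libraries and 17.8, 18.6 and 19.3 CPM in the SP libraries. The groups overlapped, with a log2 fold change of 0.11 and an interval from -0.12 to 0.34. *Psmb8* measured 2.92, 3.44 and 2.29 CPM against 2.60, 3.20 and 2.42 CPM, all SP values within the vehicle range, and *Psmb9* ranged from 1.05 to 1.38 CPM over all libraries. *Psmb8* (14.7%) and *Psmb9* (5.8%) have exons covered by genes on the opposite strand.

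Set against the standard subunits they replace, on the per-length scale, *Psmb8* was 1.23% ± 0.137 of *Psmb5* in the vehicle group and 1.00% ± 0.121 in the SP group (SD, n = 3). The library values were 1.28, 1.34 and 1.08% against 1.02, 1.12 and 0.877%, which overlapped. *Psmb9* was 0.889% ± 0.125 of *Psmb6* in the vehicle group and 0.822% ± 0.0801 in the SP group. *Psmb10* was 40.8% ± 2.56 of *Psmb7* against 41.9% ± 0.882. On this scale *Psmb10* stood higher relative to its standard counterpart than *Psmb8* and *Psmb9* did, in both groups. The size of that gap depends on the exon lengths used, which were 3381 bases for *Psmb8*, 3660 for *Psmb9* and 1705 for *Psmb10*. In CPM, with no length correction, the vehicle means were 2.88 for *Psmb8* and 61.8 for *Psmb5*. They were 1.25 for *Psmb9* and 72.1 for *Psmb6*, and 17.3 for *Psmb10* and 84.6 for *Psmb7*.

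The 3 genes of MHC class II had the lowest median of the roles, -0.34, with a negative fold change for each. *H2-Ab1*, the beta chain of the class II molecule, measured 1.89, 2.63 and 2.79 CPM in the vehicle libraries and 1.49, 1.83 and 1.84 CPM in the SP libraries (chromosome 17 from 34257689 to 34269419, plus strand). The groups did not overlap, though vehicle 1 at 1.89 CPM was close to SP 3 at 1.84 CPM, and the log2 fold change was -0.49 ± 0.191 (SE, FDR = 0.458). *Cd74*, the invariant chain that escorts class II through the cell, measured 3.14, 4.45 and 5.73 CPM against 2.13, 4.61 and 3.86 CPM. SP 1 was lowest, SP 2 was above 2 of the vehicle libraries, and the log2 fold change of -0.34 had an interval from -0.76 to 0.073. *H2-Aa*, the alpha chain, measured 2.06, 2.79 and 3.30 CPM against 2.13, 2.49 and 2.47 CPM, with overlap and a log2 fold change of -0.19. Vehicle 1 was the lowest vehicle library and SP 1 the lowest SP library for all 3 genes.

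Class II expression was read beside markers of the cells that could carry it. The 7 markers of border macrophages, among them *Mrc1* and *Lyve1*, summed to 11.9, 13.9 and 14.2 CPM in the vehicle libraries and 13, 9.34 and 8.89 CPM in the SP libraries, which overlapped. All 7 had a negative fold change, with a median of -0.37, and 1 of them had an unadjusted p under 0.05. In 2 of the 7, *Pf4* and *Ms4a7*, SP lay wholly below vehicle (28.6%, against 9.03% of all genes). They had at most 21 and 16 counts in a library. SP 1, lowest of the SP libraries for class II, was highest of them for the marker sum. It was not highest of them for *Ms4a7*, at 0.256 CPM against 0.449 CPM in SP 3. The 12 microglia markers summed to 391 to 409 CPM against 383 to 406 CPM, with a median log2 fold change of -0.0011. The 6 dendritic cell markers summed to 19.7 to 22 against 19.9 to 22.1 CPM, mostly from *Flt3* and *Zbtb46*, and *Xcr1* was at 3 counts or fewer in every library. The 11 lymphocyte markers summed to 1.29 to 1.81 against 0.314 to 1.49 CPM, with *Cd3d*, *Cd3g*, *Cd8a*, *Ms4a1* and *Nkg7* at 3 counts or fewer in every library. The 6 markers of neutrophils and monocytes summed to 0.859 to 1.29 against 0.629 to 1.15 CPM, with *Ly6g* and *Retnlg* at that limit. The part of these cells in the class II values was not tested. With each replicate number left out in turn, the log2 fold change of *H2-Ab1* was -0.56, -0.48 and -0.44, that of *Cd74* was -0.26, -0.56 and -0.23, and that of *H2-Aa* was -0.29, -0.20 and -0.066. The values of *Cd74* and *H2-Aa* thus depended on single replicate numbers.

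**Figure D5:**
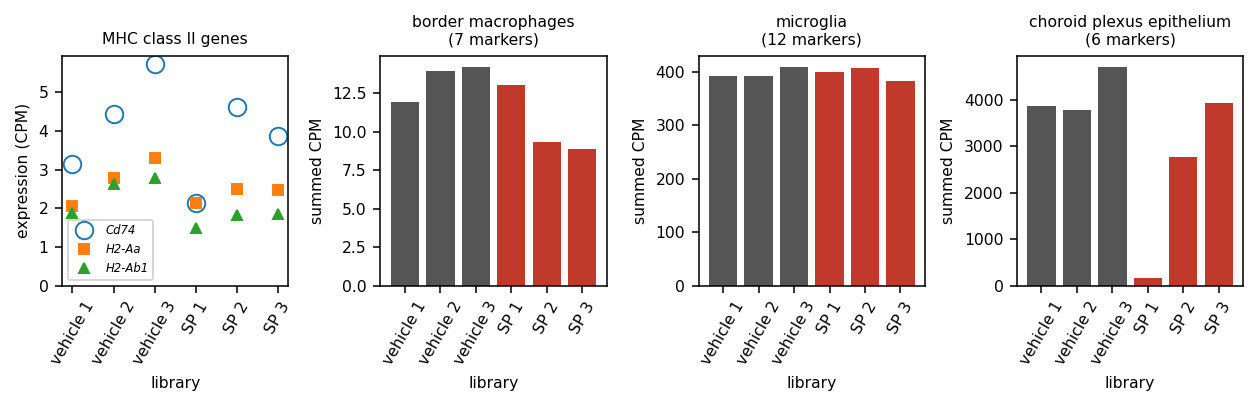
Left, expression in CPM of the 3 MHC class II genes in each library; the other panels show bars of the summed CPM of markers of border macrophages, microglia and choroid plexus epithelium in the same libraries. SP 1 is lowest for H2-Ab1 and Cd74 and has 170 CPM of choroid plexus markers, but has 13 CPM of border macrophage markers.

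The rest of the pathway was read from 167 further genes, of which 165 were in the table and 128 were tested. None was called, and the lowest FDR was 0.308. The median log2 fold change was -0.062, with 80 negative and 48 positive values. An unadjusted p under 0.05 was reached by 13 lower genes (10.2%, against 5.59% of all genes) and 3 higher genes (2.34%, against 4.48%). The groups did not overlap in 23 lower genes (18%, against 9.03%) and 6 higher genes (4.69%, against 9.19%). The 37 genes and the further genes were measured in the same 6 libraries, so the resemblance of their counts is not independent.

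The ligands were not detected. None of 21 interferon genes had more than 1 count in any library, while 3 counts in a library were taken as the limit of detection. The receptors and kinases that read interferon were present. *Ifnar1* and *Ifnar2*, the chains of the type I receptor, had log2 fold changes of -0.068 and -0.13, and *Ifngr1*, a chain of the interferon gamma receptor, had -0.064. Over the 11 receptors and kinases the median was -0.062, and over 10 further interferon regulatory factors and inhibitors it was -0.0024. Over 14 other nucleic acid sensing genes it was -0.0005, and no gene of that group had a p under 0.05, while *Ifih1*, with the same kind of function, was at -0.59. Among the receptors and kinases and among the regulators, 1 gene each was lower at an unadjusted p under 0.05, and both are named after their values were seen. They were *Ifnlr1*, a receptor chain with at most 23 counts in a library, and *Ptpn6*, a phosphatase of immune cells, at -0.46 (FDR = 0.458).

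Among 62 other interferon-induced genes, 43 had a negative and 19 a positive fold change, with a median of -0.13. An unadjusted p under 0.05 was reached by 6 lower genes (9.68%, against 5.59% of all genes) and 1 higher gene (1.61%, against 4.48%). *Lgals3bp*, a secreted glycoprotein, measured 26.1, 25.9 and 27.5 CPM in the vehicle libraries and 12.6, 14.8 and 22 CPM in the SP libraries. All SP values were lower, SP 3 least so, and the log2 fold change was -0.71 ± 0.132 (SE, FDR = 0.308). Other fits did call it, namely DESeq2 with the block (FDR = 0.0158) and without it (FDR = 0.00632), edgeR with no filter (FDR = 0.000726) and edgeR without the mice numbered 3 (FDR = 0.0472). *Shisa5* (-0.22), *Tor3a* (-0.43), *Samd9l* (-0.39) and the GTPase *Tgtp1* (-0.68) had SP values below all vehicle values, and *Tgtp1* was at -0.41 without the mice numbered 1. *Ifi203*, of the family of DNA-binding interferon-induced proteins, had SP values above them (0.34, FDR = 0.412).

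Among 28 other MHC and antigen processing genes, 19 had a negative and 9 a positive fold change, with a median of -0.11. *H2-DMb1*, which helps to load peptides on class II, measured 1.89, 2.18 and 2.5 CPM in the vehicle libraries and 1.15, 1.58 and 1.35 CPM in the SP libraries. The groups did not overlap, and the log2 fold change was -0.69 ± 0.211 (SE, FDR = 0.404). Its partner chain *H2-DMa* measured 10.4, 10.2 and 11 CPM against 11.8, 10.3 and 10.8 CPM, with overlap and a log2 fold change of 0.053 (FDR = 0.884), and the protease *Ctss*, which trims the invariant chain, was at 0.093 (FDR = 0.713). Both were named after their values were seen. *Rfx5*, a factor bound at MHC promoters, was at -0.22 (FDR = 0.404), and *H2-Ke6*, which lies in the MHC region but encodes a metabolic enzyme, at 0.23 (FDR = 0.414). *Nlrc5*, the transactivator of class I, ranged from 0.907 to 1.53 CPM with a log2 fold change of 0.13 (FDR = 0.910). *Ciita*, the transactivator of class II, had at most 9 counts in a library and was not tested. The 3 standard catalytic subunits of the proteasome had positive fold changes, with a median of 0.072. *Psmb5* measured 60.9, 68.1 and 56.3 CPM against 68.0, 76.0 and 73.5 CPM, with vehicle 2 above SP 1 and a log2 fold change of 0.23 (FDR = 0.382).

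The list was also read by library. The highest value of a gene fell in a vehicle library for 23 of the 37 genes, namely 8 in vehicle 1, 6 in vehicle 2 and 9 in vehicle 3, and in an SP library for 14. Over all genes tested, a vehicle library held the highest value in 44.2%. The lowest value fell most often in SP 3 (11 genes) and SP 1 (10 genes), then in vehicle 3 (8 genes), and never in vehicle 2. Over all genes, SP 3 held the lowest value in 14.4%, SP 1 in 18.9%, vehicle 3 in 17.5% and vehicle 2 in 13%. The summed CPM of the class I group was 160, 163 and 164 in the vehicle libraries and 159, 154 and 150 in the SP libraries, below the vehicle libraries in each. *B2m* made up 68.7, 68.7 and 70.8 CPM of the vehicle sums and 68.1, 62.4 and 61.7 CPM of the SP sums. It was the only 1 of the 6 class I genes whose groups did not overlap, against 9.03% of all genes that lay wholly lower. The summed CPM of the class II group was 7.09, 9.86 and 11.8 against 5.75, 8.92 and 8.17. That of the effectors was 104, 110 and 102 against 94.6, 103 and 97.2, and both overlapped. The sums of the factors (52.9 to 54.7 against 51.5 to 56.2), of the sensors (11.6 to 12.8 against 9.46 to 12.0) and of the immunoproteasome subunits (18.4 to 23.5 against 21.7 to 23) overlapped as well.

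The fold changes were set beside the promoter sequences, with no test. Of the 12 genes with an ISRE core, 8 had a negative fold change and the median was -0.084. Of the 17 with a window but no core, 13 had a negative fold change and the median was -0.063. Over all genes tested, 49.5% had a negative fold change. An unadjusted p under 0.05 was reached by 3 of the 12 genes with a core, *Ifih1*, *Bst2* and *Eif2ak2*. Of the 17 without a core, *Irf7* reached it. Over all genes tested, 5.59% reached it with lower expression. The groups are small, and a link between the core and the fold changes was not tested. The other gene under that p, *H2-Ab1*, was among the 8 with no promoter entry, of which 4 had a negative fold change, with a median of -0.024. By position, 10 of the 37 genes lie on chromosome 17, where the MHC is located, and these include *H2-Ab1*, with a negative fold change, and *Tap1*, with a positive one.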

How the data were processed

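The authors trimmed the reads with Trim Galore, aligned them to GRCm38 with STAR and quantified them with Salmon in a Nextflow pipeline, as the study's methods and the submitters' processing notes state, and deposited estimated counts per gene, with no scaling for library size or length. The annotation release and the strand setting of the counting are not given in the sources used here. Salmon divides reads between similar genes, and 9.77% of the values were not whole, so counts were rounded.

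Genes were filtered with edgeR's filterByExpr (minimum count 10, minimum total count 15), normalized by TMM and tested with glmQLFit and glmQLFTest (edgeR 4.0.16, R 4.3.3) over 17069 genes. The replicate number, called a batch in the labels, was a block because the study's methods adjust for replicates. Deviations from the group means in mice of the same number had r of 0.014, -0.0656 and 0.0734 across genes, so no pairing was visible over all genes together. These values cannot exclude an effect of the number on some genes. Genes with FDR < 0.1 (Benjamini-Hochberg) and |log2FC| > 0.3 were called, the thresholds of the study. CPM came from edgeR's cpm function. TPM used the union of exons in GENCODE M21 (GRCm38), which also gave positions, overlaps and shared 31-base sequences. Promoter windows came from RefSeq (GRCm38.p6). Separate mice gave the libraries. The p-values of the main fit rest on the spread between mice left after the replicate block, with counting noise, and edgeR moderates that spread across genes. They cover no other source of error.

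The 37 genes, the lists of other pathway genes and of markers, and the tests were chosen with earlier results of these data known. Values per library were given for genes under an unadjusted p of 0.05, for 16 genes named by function and for the largest fold change in each role, and *Ifit2* and *Gbp7* were added after their values were seen. Of the further pathway genes, the 10 with the lowest p and others named by function were given, and 1 gene of that rule is not reported here. The alternatives were no replicate block, no filter, a minimum of 10 counts in every library, normalization by relative log expression or upper quartile, DESeq2 1.42.0 with and without the block, limma-voom (limma 3.58.1), an FDR < 0.05 and leaving out each replicate number. The fits were tested on simulated data with known changes, all larger than those of the 37 genes. The simulation had no replicate effect and the same spread for every gene, so it does not cover changes as small as these.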

Additional observations from a re-analysis of the deposited data

How the results depend on the processing

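The number of genes called depended on the fit. Without the replicate block 2 genes were called, with no filter on low counts 384, with at least 10 counts in every library 0, with DESeq2 and the block 36, with DESeq2 without it 133, with limma-voom 2 and at FDR < 0.05 none (0). At least 10 counts in every library left 1663 genes at an unadjusted p under 0.05, and the fits that left out 1 replicate number called 9 to 36. Of the 37 genes, 1 was called with no filter, *Ifih1*. An unadjusted p under 0.05 was reached by 8 of the 37 with no filter, 7 without the replicate block, 0 with DESeq2 and the block (705 of all genes), 1 with DESeq2 without it and 2 to 4 with a replicate number left out. The cause of these differences was not tested, except that fewer mice entered the last fits. The median of the 37 genes ran from -0.093 (without the mice numbered 3) to -0.046, and that of the other pathway genes was -0.038 with at least 10 counts in every library. The groups did not overlap in 13 to 17 genes with a replicate number left out, where each group held only 2 mice. Groups of 2 lie apart more easily than groups of 3. The share over all genes was not taken for these fits, so the counts are not read as stronger separation. Since no pairing by number was visible over all genes together, a call lost or gained with the replicate block is not read as a weaker or stronger effect.

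Among the genes given with values per library, signs turned in *Irf9* (-0.0018 with no filter, -0.0017 with at least 10 counts, lowest -0.046 and highest 0.046 with a replicate number left out), *Ifitm3* (-0.0025 in both filters, -0.00081 with DESeq2 without the block, -0.093 to 0.067) and *Ifit3* (-0.00026 with DESeq2 and the block, -0.28 to 0.29). Leaving out a replicate number also turned *Stat2* (-0.044 to 0.039), *Ddx58* (-0.10 to 0.21, with -0.014 between), *H2-D1* (-0.077 to 0.018), *Tap1* (-0.082 to 0.25), *Psmb10* (-0.015 to 0.17), *Ifngr1* (-0.14 to 0.0011) and *Nlrc5* (-0.18 to 0.29). Of 407 alternative values over the genes given singly, other pathway genes included, 385 kept their direction and were not called. DESeq2 values with no adjusted p were counted as not called, although they have no side of the threshold. The fits of the other pathway genes were read after seeing the data.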
